A study of Mus musculus with 13 samples.

Results

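Casq1, Actn3, Tnnt3, Tnni2, Tnnc2, Mylpf, Myh1, Myh2, Myh4 and Atp2a1 are the 10 fast skeletal muscle genes described here, out of 36158 mouse genes with a transcript listed for every library. They were chosen by name, as genes of fast skeletal fibers with a counterpart in cardiac muscle. No measured value entered the rule, but earlier results of these data were known when they were chosen. RNA was sequenced from aortic endothelial cells (ECs), the cells that line the vessel, in 3 Hmox2+/+ and 3 Hmox2-/- libraries, and from whole hearts in 4 Hmox2+/+ and 3 Hmox2-/- libraries. Hmox2 encodes heme oxygenase 2, the constitutive enzyme that breaks down heme. Hmox2-/- mice carry a deletion of this gene, Hmox2+/+ mice are their wildtype littermates, and all animals were kept in room air without another agent. The study's text calls the sequenced mice young, and their sex is not given in the sources used here. The question for these genes was whether muscle RNA in the EC libraries is of the skeletal or of the cardiac kind.

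Striated muscle contracts when calcium released from the sarcoplasmic reticulum binds troponin on the thin filament and lets myosin of the thick filament pull on actin. Skeletal and cardiac muscle build this machine from related genes. Fast skeletal fibers use the myosin heavy chains Myh4, Myh1 and Myh2, the light chain Mylpf, the troponins Tnnt3, Tnni2 and Tnnc2, the Z-disc protein Actn3, the calcium pump Atp2a1 and the calcium store Casq1. Adult mouse heart muscle uses Myh6 and Myh7, Myl2, Tnnt2, Tnni3, Tnnc1, Actn2, Atp2a2 and Casq2 in their place. Apart from Atp2a2, which many other cells use too, neither set is a usual product of endothelium.

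The EC libraries held 26067147 to 31138642 estimated counts and the hearts 29815090 to 31619776, except Hmox2+/+ heart 1 with 7268626. The labels number the libraries of a group without naming a mouse for each, so p-values measure the spread between these libraries. Hmox2 itself fell by 2.34 on the log2 scale in Hmox2-/- ECs and by 2.30 in Hmox2-/- hearts, and 70.7% of its 31-base words also occur in Cdip1, so part of the remaining signal cannot be assigned. The 14 endothelial markers had summed levels of 1050 to 2014 TPM (a level corrected for transcript length and library size) in Hmox2+/+ and 2206 to 2446 TPM in Hmox2-/- libraries. Markers of brown and white adipocytes summed to 10194 to 15481 TPM and to 7728 to 9439 TPM in the same libraries, which is above the endothelial sum in every EC library. Counts of the Y-linked gene Ddx3y were 1672, 1933 and 2162 in Hmox2+/+ ECs but 2440, 27 and 25 in Hmox2-/- EC libraries 1 to 3. Hmox2-/- EC libraries 2 and 3 thus stand apart from the other EC libraries in this gene, and the part of that difference in the results was not tested.

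Myh2, Myh1 and Myh4 lie side by side on the plus strand of chromosome 11, with 0.143 kb between the annotated ends of Myh2 and Myh1 and 11.7 kb between those of Myh1 and Myh4 (GRCm39). The 250 bases before their starts are shown because these neighbors have separate promoters and differ among themselves in the levels described next. They come from RefSeq on GRCm38.p6, at chr11:67170777-67171026 for Myh2, chr11:67199852-67200101 for Myh1 and chr11:67237562-67237811 for Myh4, all on the plus strand. The starts used for them come from another annotation and build than the distances above, so the stretches cannot be placed by those distances. Capitals mark the 1 run of at least 10 bases that all 3 share.
Myh2: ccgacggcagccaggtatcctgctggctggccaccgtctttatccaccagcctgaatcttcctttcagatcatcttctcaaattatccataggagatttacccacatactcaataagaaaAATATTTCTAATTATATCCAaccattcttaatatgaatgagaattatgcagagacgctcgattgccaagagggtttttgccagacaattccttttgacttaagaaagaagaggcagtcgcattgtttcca
Myh1: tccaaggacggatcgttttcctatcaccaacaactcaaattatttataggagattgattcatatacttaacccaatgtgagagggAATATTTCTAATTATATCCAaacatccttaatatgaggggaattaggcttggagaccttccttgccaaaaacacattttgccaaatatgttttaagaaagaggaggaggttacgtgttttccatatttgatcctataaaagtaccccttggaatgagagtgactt
Myh4: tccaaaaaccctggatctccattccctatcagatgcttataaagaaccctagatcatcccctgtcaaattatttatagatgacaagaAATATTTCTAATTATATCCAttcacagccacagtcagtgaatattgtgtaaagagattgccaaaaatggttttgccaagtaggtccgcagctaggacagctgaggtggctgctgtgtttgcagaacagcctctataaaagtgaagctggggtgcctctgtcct
The shared run, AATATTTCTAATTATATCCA, is 20 bases long and starts 130 bases before the start of Myh2, 165 before that of Myh1 and 163 before that of Myh4. Among 32536 promoters searched on both strands it was found in these 3. TATAAA, the core letters of a TATA box, was found in the 250 bases before Myh1 and Myh4 and in 12.3% of all promoters. CATTCC, the letters of the MCAT element bound by TEAD factors, was likewise found in Myh1 and Myh4 and in 12.6% of all promoters. CANNTG, the E-box read by MyoD-type factors among many others, was found in Casq1, Tnnc2, Atp2a1, Mylpf and Myh4 and in 66.2% of all promoters. A CArG box was found for Myh4 and in 1.48% of promoters. The MEF2 pattern searched matched none of the 7 members with a listed promoter and 0.513% of promoters. Its letters are not given here, and the stretch ttatttatag, printed above for Myh1 and Myh4, fell outside it. MEF2 sites are therefore not shown to be absent. These are matches of letters and say nothing of binding. Actn3, Tnnt3 and Tnni2 had no listed promoter.

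Across the ECs, every one of the 10 genes had a lower normalized level (CPM, a count relative to its library's TMM-adjusted total) in each Hmox2-/- library than in each Hmox2+/+ library, a separation in this direction that 21.3% of the tested genes also showed. A gene was called when its Benjamini-Hochberg adjusted p in edgeR's quasi-likelihood test was at most 0.05 and its change at least 2-fold, and 3.89% of the 15303 tested genes were called lower. Myh2 was left out by the filter on low counts. The other 9 members passed it and were called lower. Casq1, Actn3 and Atp2a1 reached the filter's cutoff in the Hmox2-/- ECs alone, whereas the other 6 reached it only with their higher counts in Hmox2+/+ ECs, so their calls are not independent of the filter. Without the filter, 10 of 10 were called lower, beside 2.94% of 22999 genes. In hearts 6 members were tested, with Casq1 lower (as were 4.05% of 13818 genes), Actn3 higher (as were 2.66%) and the 4 other tested members not called.

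Myh4, the myosin heavy chain of the fastest (type IIB) fibers, had 329, 16 and 316 estimated counts in Hmox2+/+ EC libraries 1 to 3, which are 1.82, 0.106 and 1.97 TPM. It had 0 counts in each of the 3 Hmox2-/- EC libraries. Hearts held 0, 1, 0 and 0 counts in Hmox2+/+ and 0, 1 and 2 in Hmox2-/- mice. Myh4 RNA was thus present in the EC libraries of Hmox2+/+ mice and at or under the floor of 3 counts elsewhere. The cell type that it came from was not tested. Against that floor, taken over the group, Myh4 was at least 195-fold lower in Hmox2-/- ECs, and edgeR's adjusted p was 0.0259. The adjusted p was 0.0561 to 0.0785 without Hmox2+/+ EC library 1 or any one Hmox2-/- EC library. Relative to Hmox2+/+ hearts, Hmox2+/+ ECs held 712 times as much relative to library size, with a counting interval of 127 to 28177 set by the single heart count. Between the heart groups no fold was computed, since both groups were at or under the floor.

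Myh1 encodes the myosin heavy chain of type IIX fibers. Its counts were 97, 38 and 453 in Hmox2+/+ ECs and 8, 6 and 5 in Hmox2-/- ECs, and none of the 4 Hmox2+/+ hearts or 3 Hmox2-/- hearts held more than 4. Hmox2-/- ECs were 26.6-fold lower (log2 fold change -4.73, SE 0.94, adjusted p = 0.0172). On the TPM scale the EC groups overlapped, at 0.529, 0.248 and 3.04 against 0.534, 0.399 and 0.364. Most of the few Hmox2-/- counts were assigned to Myh1-204, with 6, 5 and 4 counts, while most Hmox2+/+ counts were assigned to Myh1-202 and Myh1-203. With counts taken from length-scaled TPM the log2 fold change shrank to -1.42 and was not called. The call was also lost without any one Hmox2-/- EC library (adjusted p = 0.0540 to 0.0803).

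Myh2, the myosin heavy chain of type IIA fibers, was the scarcest of the 3 myosin genes in Hmox2+/+ ECs, with 17, 10 and 21 counts. Hmox2-/- ECs held 2, 1 and 3. The ratio relative to library size was 7.07, with an exact counting interval of 3.02 to 20.2. In contrast to Myh4 and Myh1, hearts carried about as much Myh2 as Hmox2+/+ ECs, with 1, 17, 23 and 20 counts in Hmox2+/+ and 19, 9 and 21 in Hmox2-/- mice. The heart groups overlapped, and the fitted change of -0.41 (SE 0.45) was not called (adjusted p = 0.513).

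The make-up of the fast myosins differed among the Hmox2+/+ EC libraries. Myh4 was 74.3% of the counts of the 3 genes in library 1 (95% Wilson interval 70.0 to 78.1, 443 counts), 25.0% in library 2 (16.0 to 36.8, 64 counts) and 40.0% in library 3 (36.6 to 43.5, 790 counts). Myh1 was 21.9%, 59.4% and 57.3%, and Myh2 3.84%, 15.6% and 2.66%. Library 1 was therefore a mostly Myh4 library and the other 2 were mostly Myh1. These genes share 29.5% to 30.4% of their 31-base words with other genes, chiefly each other, so reads in the shared stretches were split by the quantification, and the intervals cover counting error only.

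**Figure D1:**
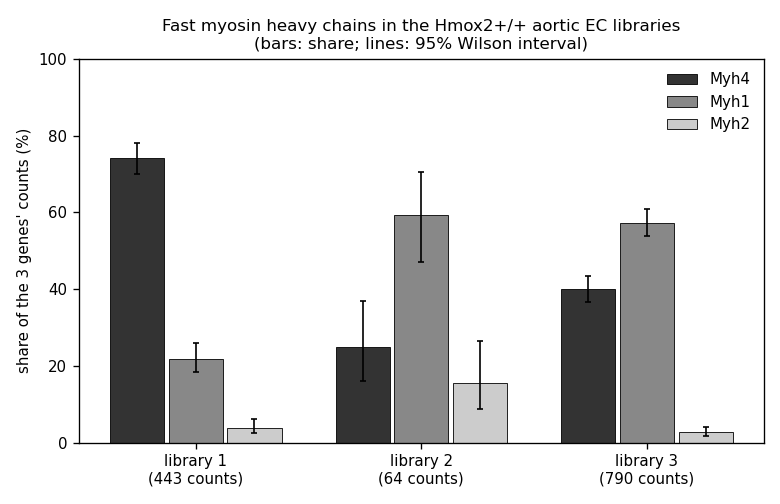
Share of the summed counts of Myh4, Myh1 and Myh2 (y axis, percent) in each Hmox2+/+ EC library (x axis), with 95% Wilson intervals. Myh4 leads in library 1 at 74.3%, and Myh1 in libraries 2 and 3 at 59.4% and 57.3%.

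Mylpf, the fast regulatory light chain, followed the heavy chains. It was at 8.31, 8.47 and 19.4 TPM in Hmox2+/+ ECs and at 2.07, 5.01 and 0.733 TPM in Hmox2-/- ECs, so the groups did not overlap. Hmox2-/- ECs were 10.6-fold lower (log2 fold change -3.40, SE 0.53, adjusted p = 0.00817), but on length-scaled TPM the log2 value was -2.02 and not called. Septin1 shares 22.5% of the words of Mylpf, so a part of its low counts cannot be assigned with certainty. Hearts held 0.494 to 1.21 TPM in Hmox2+/+ and 1.10 to 1.79 TPM in Hmox2-/- mice, and the difference of 0.26 (SE 0.42) was not called (adjusted p = 0.653).

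The 3 troponin genes carried the highest levels among the members in Hmox2+/+ ECs together with Mylpf and Casq1. Tnnt3, the fast troponin T that ties the complex to tropomyosin, was at 21.3, 5.66 and 32.4 TPM there and at 0.546, 0.489 and 0.436 TPM in Hmox2-/- ECs. The groups did not overlap. Hmox2-/- ECs were 58.6-fold lower (log2 fold change -5.87, SE 0.73, adjusted p = 0.00408). In hearts Tnnt3 had 0, 8, 7 and 8 counts in Hmox2+/+ and 22, 10 and 4 in Hmox2-/- mice, too few to be tested.

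Tnni2 is the fast inhibitory troponin I. It had 223, 67 and 276 counts in Hmox2+/+ ECs and 2, 2 and 7 in Hmox2-/- ECs. Levels were 13.02, 4.61 and 19.0 TPM in Hmox2+/+ ECs and 0.237, 0.108 and 0.420 TPM in Hmox2-/- ECs, 45.5-fold lower (log2 fold change -5.51, SE 0.73, adjusted p = 0.00495). Of the 11 counts left in Hmox2-/- ECs, 15.3% were assigned to protein-coding transcripts, against 96.5% of 566 in Hmox2+/+ ECs. For Tnnt3 these shares were 57.1% of 21 and 99.3% of 1380. The Hmox2-/- shares rest on few counts that the quantification split among transcripts, and the differences were not tested. Hearts held 0.280 to 1.15 TPM of Tnni2 in Hmox2+/+ and 0.953 to 2.03 TPM in Hmox2-/- mice, which overlapped (log2 fold change 0.56, SE 0.45, adjusted p = 0.358).

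Tnnc2, the calcium-binding troponin C of fast fibers, was at 13.1, 4.52 and 21.9 TPM in Hmox2+/+ ECs. Hmox2-/- ECs had 0.302, 0.304 and 0.155 TPM, from 4, 1 and 2 counts. Hmox2-/- ECs were 72.7-fold lower (log2 fold change -6.18, SE 0.77, adjusted p = 0.00406). Tnnc2 lies on chromosome 2 (164619075-164621887, GRCm39) and Tnni2 on chromosome 7 (141995545-141998147), 50.5 kb from Tnnt3, so 2 of the 3 troponin genes are near neighbors and the third is not. Ube2c shares 55.3% of the words of Tnnc2, and reads there may have been split. Hearts held 0 to 4 counts in Hmox2+/+ and 0 to 6 in Hmox2-/- libraries and were not tested.

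Actn3 encodes the alpha-actinin that anchors thin filaments at the Z-disc of fast fibers. It was at 2.17, 0.805 and 3.85 TPM in Hmox2+/+ ECs and at 0.147, 0.221 and 0.301 TPM in Hmox2-/- ECs (log2 fold change -3.13, SE 0.68, adjusted p = 0.0227). Leaving out any one Hmox2-/- EC library, or Hmox2+/+ EC library 1, moved the adjusted p above 0.05, to at most 0.0872. In hearts the direction was the opposite one. Counts were 2, 11, 6 and 5 in Hmox2+/+ and 22, 34 and 21 in Hmox2-/- hearts, and normalized levels did not overlap, as for Casq1 and for 40.2% of tested genes. Hmox2-/- hearts were higher by 1.51 on the log2 scale (SE 0.42, adjusted p = 0.0185), but by 0.85 (adjusted p = 0.289) with counts from length-scaled TPM. On the TPM scale the groups overlapped, at 0.0574 to 0.341 and 0.256 to 0.425. The call was also lost without Hmox2+/+ heart 3 (adjusted p = 0.0515), Hmox2+/+ heart 4 (0.0577) or Hmox2-/- heart 2 (0.0946), and in a fit of all 13 libraries (0.0722).

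Casq1, the calsequestrin that stores calcium in the sarcoplasmic reticulum of fast fibers, was the member with the highest level in heart. It was at 12.8, 6.94 and 10.5 TPM in Hmox2+/+ ECs and at 2.29, 1.01 and 0.696 TPM in Hmox2-/- ECs (log2 fold change -3.08, SE 0.59, adjusted p = 0.0154). Without Hmox2-/- EC library 2 or 3 the adjusted p was 0.0543 and 0.0560. Hmox2+/+ hearts held 6.09, 5.87, 5.85 and 4.23 TPM and Hmox2-/- hearts 2.55, 2.07 and 2.16 TPM. All Hmox2+/+ hearts were above all Hmox2-/- hearts, and Hmox2-/- hearts were 2.94-fold lower (log2 fold change -1.55, SE 0.18, adjusted p = 1.87e-04). Leaving out the shallow Hmox2+/+ heart 1 gave -1.54. Casq2, its cardiac counterpart, differed the other way in hearts, by 0.63 (SE 0.12, adjusted p = 0.00363), which is under the 2-fold threshold.

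Atp2a1 encodes SERCA1, the pump that returns calcium to the store in fast fibers. It was at 5.90, 0.921 and 7.25 TPM in Hmox2+/+ ECs and at 0.157, 0.176 and 0.143 TPM in Hmox2-/- ECs. Hmox2-/- ECs were 23.7-fold lower (log2 fold change -4.57, SE 0.72, adjusted p = 0.00867), and the groups did not overlap. Without Hmox2-/- EC library 3 the adjusted p was 0.0532. Rabep2 shares 16.4% of its words. Hearts held 0.0416 to 0.177 TPM in Hmox2+/+ and 0.0774 to 0.135 TPM in Hmox2-/- mice, and the difference of -0.25 (SE 0.46) was not called (adjusted p = 0.698). Atp2a2, the cardiac pump that many other cells use too, was 50.3 ± 4.62 TPM in Hmox2+/+ ECs and 35.2 ± 5.03 TPM in Hmox2-/- ECs (SD, n = 3 each) and was not called (log2 fold change -0.46, adjusted p = 0.0693).

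**Figure D2:**
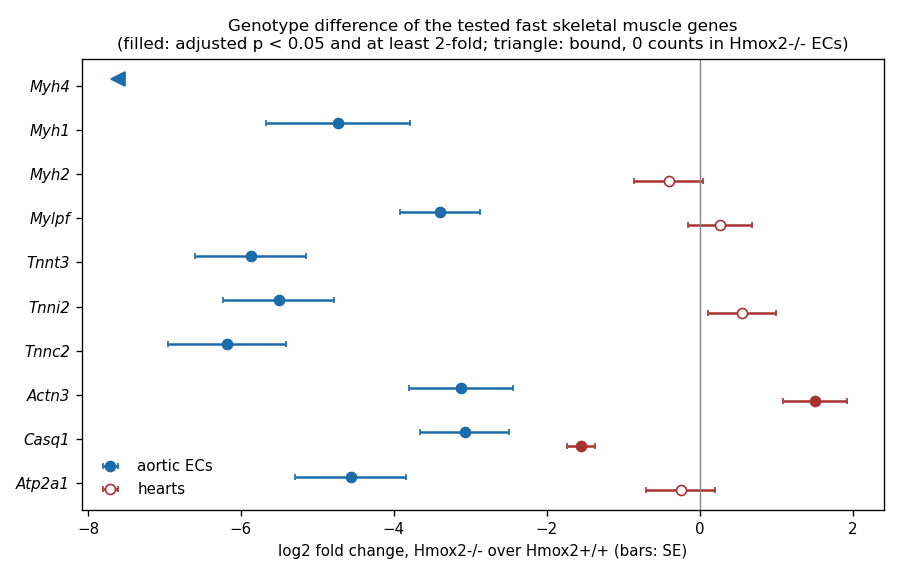
Log2 fold change of Hmox2-/- over Hmox2+/+ (x axis) for each member tested in ECs (blue) or hearts (red), with SE. Filled points were called, open points were not, and the triangle for Myh4 is the bound of 195-fold against 0 counts. The EC values lie between -3.08 and -6.18 beside that bound, while the heart values lie between -1.55 and 1.51.

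Hmox2-/- EC library 1, the one with Ddx3y counts like those of the Hmox2+/+ ECs, was as low as the other Hmox2-/- libraries for most members. Its counts were 0 for Myh4, 8 for Myh1, 7 for Tnnt3, 2 for Tnni2, 4 for Tnnc2, 10 for Actn3 and 10 for Atp2a1. Casq1 was the exception, with 97 counts against 35 and 20. Summed over the 10 genes, levels were 32.3 to 119.6 TPM in Hmox2+/+ ECs, 3.27 to 7.74 TPM in Hmox2-/- ECs, 7.05 to 8.93 TPM in Hmox2+/+ hearts and 5.76 to 7.43 TPM in Hmox2-/- hearts. In bulk RNA, fewer cells of a type and less RNA per cell cannot be told apart. With Hmox2-/- library 1, 2 or 3 left out, 6, 5 and 4 members were called, all lower. In either direction 1420 genes (9.28%) were called with all libraries and 532 without library 3. The shares of all genes called lower in these fits are not given here.

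The genotype difference was then compared between tissues in one fit of the 13 libraries, in which 8.09% of 15911 genes were called with a higher genotype difference in hearts than in ECs. Among the members 9 of 10 were called, in each case with a more negative genotype difference in ECs than in hearts. Tnnt3, Tnnc2, Myh1 and Myh4 were too scarce to be tested in hearts alone and passed the filter of this fit through Hmox2+/+ ECs. Their interactions rest mainly on the difference in ECs and are not independent of the filter. The interaction was 6.53 for Tnnc2 (SE 1.61, adjusted p = 0.00871), 6.42 for Tnnt3 (SE 0.99, adjusted p = 6.99e-04), 6.10 for Tnni2 (SE 0.85, adjusted p = 3.90e-04) and 4.67 for Actn3 (SE 0.81, adjusted p = 0.00130). Casq1, which was lower in both tissues, had an interaction of 1.55 (SE 0.58) that was not called (adjusted p = 0.0581). Those of Myh1 (adjusted p = 0.0437) and Myh2 (0.0372) were lost under 11 and 13 of 19 alternatives. That of Tnnc2 was lost without Hmox2-/- heart 2 (4.53, adjusted p = 0.280), that of Mylpf with length-scaled TPM (2.37, adjusted p = 0.0549), and that of Myh4 without Hmox2+/+ heart 2, Hmox2-/- heart 2 or Hmox2-/- heart 3 (adjusted p = 0.0560, 0.0727 and 0.154).

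Hmox2+/+ ECs and Hmox2+/+ hearts were compared next, to place the level in ECs against an organ made mostly of cardiac muscle. In this comparison 39.3% of 15911 genes were called, 22.0% as lower in heart. Of the 10 members 8 were lower in heart, and 2, Casq1 and Myh2, were not called. Tnnt3, Tnnc2, Myh1 and Myh4 were too scarce in hearts to be tested there between genotypes, and they passed the filter here through Hmox2+/+ ECs. Their calls as lower in heart are thus not independent of the filter, and the heart level of Tnnc2 rests on 5 counts. Tnnc2 was 67.0-fold lower in heart (adjusted p = 1.87e-05), Tnnt3 36.3-fold (4.17e-06), Atp2a1 18.4-fold (8.97e-06) and Mylpf 9.47-fold (1.41e-05) in edgeR's test. Actn3 and Tnni2 were lower by 3.06 and 2.96 on the log2 scale. For Casq1 the difference was 0.09 (SE 0.37, adjusted p = 0.850) and for Myh2 0.97 (SE 0.50, adjusted p = 0.104). All 9 cardiac counterparts were higher in heart, with a median log2 difference of 7.80, where the members had a median of -3.72 and all tested genes of -0.04.

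Between Hmox2-/- ECs and Hmox2-/- hearts, 4 of the 10 members were called higher in heart. Here 46.7% of 15911 genes were called, 20.1% as higher in heart. Casq1 was 3.11-fold higher in heart (adjusted p = 0.00459), Actn3 3.06-fold (0.0221), Tnni2 8.81-fold (8.20e-04) and Myh2 10.7-fold (3.08e-04) in edgeR's test, and the remaining 6 members were not called. The call of Actn3 was lost with length-scaled TPM (adjusted p = 0.122) and without Hmox2-/- EC library 1 (0.0644) or Hmox2-/- heart 2 (0.0873). The comparison shares its Hmox2-/- libraries with the genotype comparisons, so it is not independent of them.

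The share of each fast gene in the sum of itself and its cardiac counterpart, in TPM, was used to separate skeletal from cardiac RNA within a library. In hearts the fast share was at most 2.12% for Casq1 and at most 0.0712% for the other 7 pairs, so the fast forms were a small part of each pair there. In Hmox2+/+ ECs it reached 53.9%, 5.65% and 46.0% for Tnnt3 over Tnnt2 in libraries 1 to 3. For Tnnc2 over Tnnc1 it was 60.5%, 8.84% and 51.1%, and for Tnni2 over Tnni3 49.1%, 5.39% and 37.3%. Casq1 made up 91.1%, 73.2% and 91.7% of its pair with Casq2. The fast myosin heavy chains were 1.03% to 18.1% of all 5 heavy chains, Mylpf 2.99% to 26.1% of its pair with Myl2, Actn3 11.3% to 24.1% and Atp2a1 1.63% to 13.4%. Both the skeletal and the cardiac form of each pair were thus present in every Hmox2+/+ EC library. Because many other cells use Atp2a2 too, the share of Atp2a1 is not a measure of skeletal against cardiac muscle alone.

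In all 8 pairs the Hmox2+/+ EC shares lay above the Hmox2+/+ heart shares without overlap. A two-sided exact permutation test gave p = 0.0286 for each pair, the smallest that 3 against 4 libraries allow, and 0.102 after Benjamini-Hochberg adjustment over 32 tests, so none passed the correction. Between Hmox2-/- ECs and hearts the 8 pairs were also apart, at an exact permutation p = 0.1, the smallest that 3 against 3 libraries allow (adjusted p = 0.16). Apart from Atp2a2, with 3935, 3702 and 4213 counts, Hmox2-/- ECs had few counts of either form. The shares of the other pairs there rest on little RNA. They were 32.4% to 60.2% for Tnnt3, 14.3% to 46.0% for Tnnc2, 4.26% to 12.5% for Tnni2 and 84.0% to 93.0% for Mylpf. Against Hmox2+/+ ECs 3 pairs did not overlap, of Mylpf and of the myosin heavy chains with a higher and of Atp2a1 with a lower fast share, and no pair passed the test (smallest adjusted p = 0.16, exact permutation). Between the hearts the one pair apart was that of Casq1, at 1.53% to 2.12% in Hmox2+/+ and 0.383% to 0.405% in Hmox2-/- mice (exact permutation p = 0.0286, adjusted p = 0.102).

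**Figure D3:**
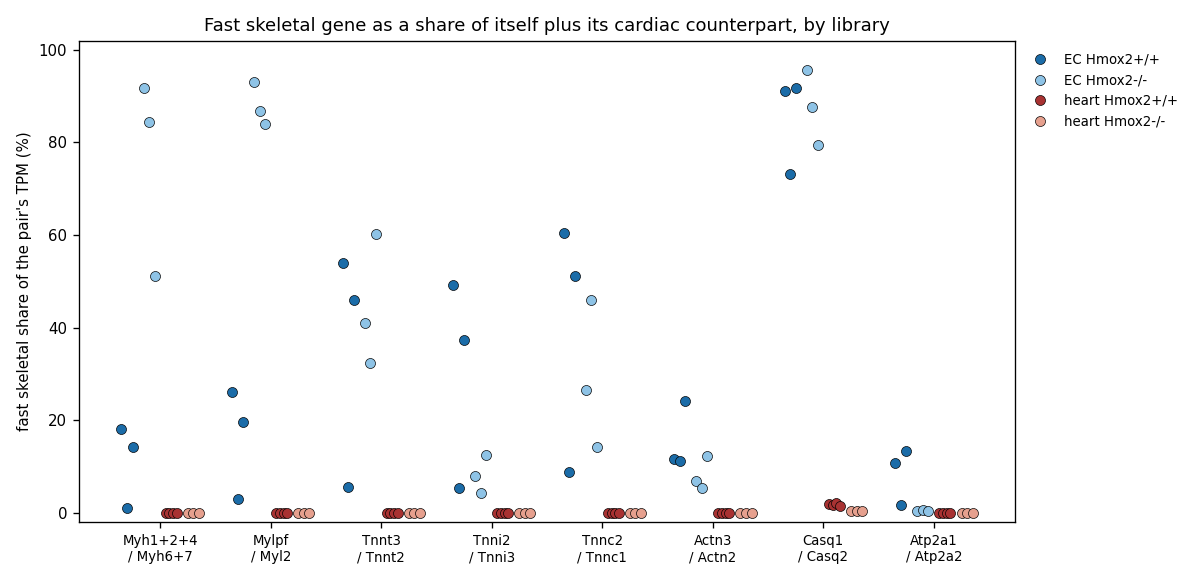
Fast share of the summed TPM of each fast gene and its cardiac counterpart (y axis, percent) for 8 pairs (x axis), 1 point per library, colored by group. Heart points lie at 2.12% or less, while Hmox2+/+ ECs reach 91.7% for Casq1 and 60.5% for Tnnc2, and 1 Hmox2+/+ EC library lies below the other 2 in every pair.

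For most genes, the skeletal and cardiac forms differed in opposite directions between library 2 and the other Hmox2+/+ EC libraries. Between libraries 1 and 3 most genes of both sets were higher in library 3. For example, Tnnt3 was at 21.3 and 32.4 TPM and Tnnt2 at 18.2 and 38.1 TPM. Casq1, Casq2, Actn2 and Atp2a2 were higher in library 1 than in library 3. In TPM, 9 of the 10 members were lowest in library 2, where 8 of the 9 cardiac counterparts were highest. Tnnt3 was 5.73-fold higher in library 3 than in library 2 and Atp2a1 7.87-fold higher, while Tnnt2 was 2.48-fold and Myl2 3.48-fold higher in library 2 than in library 3. Over the members the median ratio of library 3 to library 2 was 4.81, with a range of 1.52 to 18.6. For the cardiac counterparts the median of the same ratio was 0.412. The exceptions were Mylpf, which was at 8.31 and 8.47 TPM in libraries 1 and 2, and Actn2, which was highest in library 1 and lowest in library 2. The fast share was lowest in library 2 in 8 of 8 pairs. With 3 libraries this order is a description, and it was seen in the data before it was counted. Without library 2, 10 members were called lower in Hmox2-/- ECs, with Myh2 now past the filter. The share of all genes called lower in that fit is not given here, and it was 3.89% with all libraries.

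**Figure D4:**
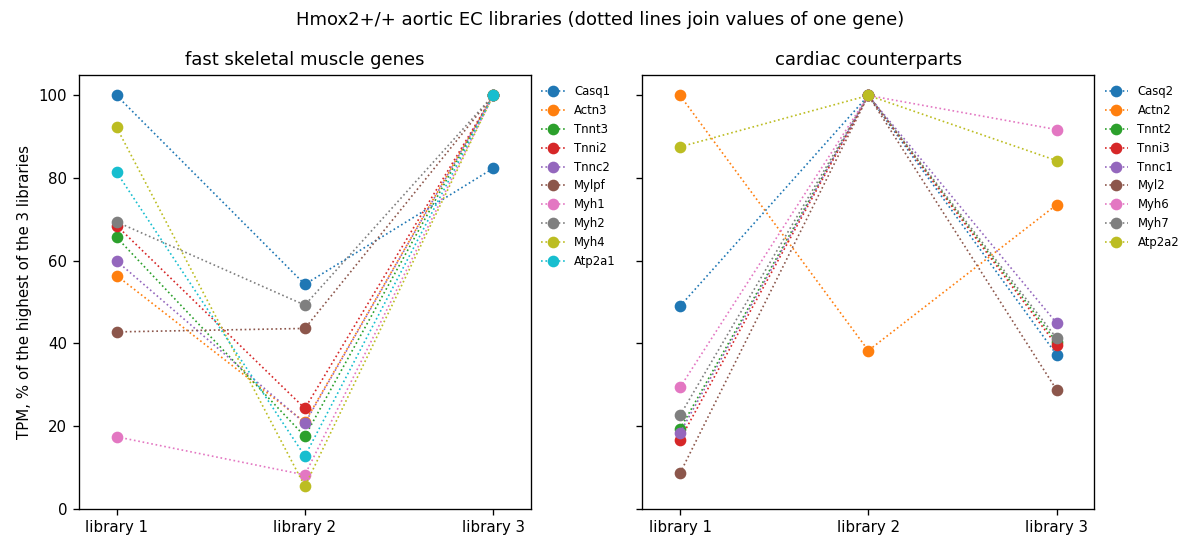
TPM of each member (left) and of each cardiac counterpart (right) in the 3 Hmox2+/+ EC libraries (x axis), as a percent of the highest of the 3 (y axis), with dotted lines joining values of one gene. Library 2 is lowest for 9 of 10 members and highest for 8 of 9 counterparts.

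The cardiac counterparts also differed by genotype in ECs, where 8 of 9 were called lower. Tnnt2 was 18.2, 94.6 and 38.1 TPM in Hmox2+/+ ECs and 0.788, 1.02 and 0.288 TPM in Hmox2-/- ECs (log2 fold change -6.39, SE 0.64, adjusted p = 0.00240). The log2 fold change was -8.85 for Myl2, -7.53 for Myh6 and -5.21 for Tnnc1. Their median was -4.69, that of the 9 tested members -4.73 and that of all tested genes -0.02. In hearts 0 of the 9 counterparts were called by edgeR, although 4 had an adjusted p of at most 0.05 and 7 an unadjusted p under 0.05. Skeletal and cardiac forms were thus both lower in Hmox2-/- ECs, and the difference between the medians was not tested.

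Beyond the members, a list of 30 other fast or general skeletal muscle genes had 20 tested in ECs, of which 8 were called lower and 0 higher. Pvalb, the calcium buffer of fast fibers, had 245, 41 and 277 counts in Hmox2+/+ and 2, 0 and 2 in Hmox2-/- ECs (log2 fold change -6.89, SE 1.00, adjusted p = 0.00668). Its low value in Hmox2+/+ EC library 2 was like that of most members, but the list as a whole did not share this order. The summed TPM of the list was lowest in library 1, and Pgam2 had its highest count in library 2. Pgam2, the muscle phosphoglycerate mutase, and Mybpc2, the fast myosin-binding protein C, were both lower (log2 fold change -3.75 for each, adjusted p = 0.00268 and 0.0498), and Tmod4, which caps thin filaments in skeletal muscle, had -3.55 (adjusted p = 0.00399). The groups overlapped for Mybpc2, with 642, 19 and 243 counts in Hmox2+/+ and 27, 21 and 16 in Hmox2-/- ECs. In hearts, where much of this list is also expressed (1770 to 2285 TPM in sum in Hmox2+/+ mice), 1 of 22 tested genes was lower and 1 higher. Cacna1s, a subunit of the skeletal calcium channel, fell by 1.30 (SE 0.15, adjusted p = 2.14e-04). Pvalb was higher by 2.19 (SE 0.53, adjusted p = 0.0103), with 1, 2, 5 and 2 counts in Hmox2+/+ and 17, 23 and 13 in Hmox2-/- hearts. The heart groups did not overlap in counts of Pvalb.

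Of 5 slow fiber genes, 4 were tested in ECs and Tnnt1, the slow troponin T, was called lower (log2 fold change -2.10, SE 0.40, adjusted p = 0.0152), while in hearts Myh7b was lower (-1.42, adjusted p = 1.64e-04) and Myl6b higher (1.13, adjusted p = 0.0230). Of the developmental and extraocular myosins Myh3, Myh8 and Myh13, Myh8 was tested in ECs and was higher in Hmox2-/- mice, with 17, 22 and 20 counts against 0, 1 and 5 (log2 fold change 3.38, SE 0.80, adjusted p = 0.0287). Myh8 shares 18.4% of its words with other genes, Myh2 and Myh1 first among them.

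Genes of muscle precursor cells were looked at beside the fast genes. Of 13 myogenic regulators and satellite cell genes, 4 were tested in ECs and 0 called by edgeR, with 1 at an unadjusted p under 0.05. The list was at 15.4 to 25.0 TPM in sum in Hmox2+/+ and 17.9 to 20.6 TPM in Hmox2-/- ECs. The defining factors Myod1 and Myog, which drive muscle differentiation, were at or near 0, with at most 4 and 1 counts in any EC library, and Myf5 and Pax7 had at most 4 and 2.

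Other striated genes and other cell types moved in the ECs at the same time. Of 13 tested cardiomyocyte genes 11 were lower, among them Myl3 (log2 fold change -8.13), Mybpc3 (-5.34), Actc1 (-4.49) and Sln (-4.40). Of 18 genes used by skeletal and cardiac muscle alike 14 were lower, led by Ckmt2 (-8.12), Csrp3 (-7.06), Acta1 (-6.20) and Ckm (-5.61). Among 8 smooth muscle markers 3 were lower, with Myh11 at -2.12 and Myocd at -2.16. Of 9 adipocyte markers Lep was lower (-3.77) and 8 were not called, of 14 endothelial markers Tie1 was higher (1.01) and 13 were not called, of 6 fibroblast markers Lum (1.64) and Dcn (1.33) were higher, of 6 macrophage markers Lyz2 was higher (1.09), and of 5 peripheral nerve markers Ncmap was higher (2.39). Summed smooth muscle markers were at 1988 to 3199 TPM in Hmox2+/+ and 603 to 2285 TPM in Hmox2-/- ECs. The part of these other tissues in the levels of the members was not tested.

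The genes whose profile over the 13 libraries was most like the members' were ranked by the root mean square difference of centred log2(CPM + 0.1) values from the members' mean profile, over 14235 genes. The first 10 were Gm7901 (0.54), Cntn6 (0.56), Krt14 (0.70), Ano1 (0.74), Pvalb (0.76), Adra1d (0.77), Nt5e (0.77), Gm10036 (0.80), Pxt1 (0.81) and Cdh3 (0.83). The members themselves ranged from 0.45 for Atp2a1 to 1.51 for Myh2. Pvalb is the one gene of the other skeletal muscle list among these 10, Myoz1 ranked 17, and the cardiac counterparts ranked from 14082 for Atp2a2 to 14225 for Myh6. With a pseudocount of 1 in place of 0.1, 5 of the 10 genes remained among the first 10.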

How the data were processed

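Polyadenylated RNA of 6 aortic EC and 7 heart samples had been sequenced in pairs from directional oligo-dT libraries. The authors quantified transcripts with kallisto 0.44.0 at default parameters against GENCODE M32 (GRCm39) and deposited an estimated count and a TPM value for each transcript of each sample. Transcript identifiers without their version were matched to GENCODE symbols (M39, GRCm39), with 115191 of 118489 matched (97.2%), and the unmatched transcripts held 0.747% to 1.01% of the counts of a library.

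Estimated counts and TPM were summed per gene, and the counts were rounded to whole numbers. Genotypes were compared within each tissue with edgeR 4.0.16 in R 4.3.3 (filterByExpr with a minimum count of 10, TMM, quasi-likelihood test), and tissues and the interaction in one fit of the 13 libraries. A call needed an adjusted p of at most 0.05 and a log2 fold change of at least 1 in size. Variation between replicates (edgeR's common BCV) came to 0.241 for ECs and 0.149 for hearts. In simulated data with true changes of 2 on the log2 scale, 178 of 200 changed genes were called for the EC comparison (12 unchanged genes called) and 195 of 200 for the heart comparison (3 unchanged). Shares of gene pairs were compared by exact permutation tests. Beyond the members, the text names their cardiac partners, up to 4 called genes of each list with the largest change among those with a mean of at least 1 CPM in a group, and the 10 genes most alike in profile. Myh8, Ncmap, Myod1, Myog, Myf5 and Pax7 were named after their values were seen. Members and lists were chosen with earlier results of these data known. Alternatives were DESeq2 1.42.0, upper-quartile scaling, no filter, length-scaled TPM, summed myosin copies, a replicate block, each library left out and, added after seeing the data, protein-coding transcripts only. Samples sharing a replicate number were checked for pairing. The correlations of their deviations were 0.173, 0.0375 and 0.0743 between Hmox2+/+ and Hmox2-/- ECs, which come from different mice. Between ECs and hearts they were 0.103, 0.0184 and 0.0546 in Hmox2+/+ mice. In Hmox2-/- mice they were 0.0753 and 0.119 for numbers 1 and 3 and negative for number 2. For ECs and hearts with unlike numbers they were no higher than 0.0594. These small values do not settle whether an EC and a heart library share a mouse. The numbers were not taken to pair samples. Figures were drawn with matplotlib 3.10.9.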

Additional observations from a re-analysis of the deposited data

Results flagged for a closer look

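The genotype difference of 9 members differed between ECs and hearts by the interaction test of edgeR, with log2 differences (heart minus EC) of 4.67 for Actn3, 6.42 for Tnnt3, 6.10 for Tnni2, 6.53 for Tnnc2, 3.69 for Mylpf, 5.17 for Myh1, 2.45 for Myh2 and 4.34 for Atp2a1. For Myh4 the fitted difference was 11.57, which depends on the prior count because Hmox2-/- ECs held 0 counts. Tnnt3, Tnnc2, Myh1 and Myh4 were too scarce to be tested in hearts alone, so their values rest mainly on the difference in ECs.

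Among the 10 genes in the group of 4 Hmox2+/+ hearts, 1 library stood far from the others for 3 genes. Casq1 was at 4.23 TPM in heart 4, Myh1 at 0.0867 TPM in heart 3 and Myh4 at 0.00617 TPM in heart 2. The last 2 rest on 4 counts and 1 count where the other hearts were at 0. Chance picks out about 1 in 20 such groups. That rate does not hold for Myh1 and Myh4, where any count above 0 in a single heart would be flagged.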

How the results depend on the processing

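Tnnt3, Tnni2 and Tnnc2 kept their EC call under all 14 alternatives and Casq1 its heart call under all 15. With the adjusted p alone, 2767 genes passed in ECs, 4619 in hearts, 10490 between Hmox2+/+ tissues, 11210 between Hmox2-/- tissues and 4594 for the interaction. In hearts 1 member was called with length-scaled TPM, with the replicate block and in the fit of all 13 libraries. Leaving out 1 library gave 4 to 10 members and 532 to 1721 genes in ECs (861 without Hmox2-/- EC 2), and 1 to 2 members in hearts. Casq1 between Hmox2+/+ tissues was -0.051 with upper-quartile scaling and -0.17 to 0.56 with 1 library left out. Between Hmox2-/- tissues, Tnnc2 was -0.26 and Mylpf -0.36 with length-scaled TPM and Atp2a1 -0.10 with upper-quartile scaling, and leaving out 1 library gave -1.57 to 1.03 for Tnnc2 and -0.025 to 0.378 for Atp2a1. None of these was called and the cause was not tested. The Hmox2-/- minus Hmox2+/+ difference in fast share from counts in hearts was 0.000719 percentage points for the myosins and 0.000372 for Atp2a1. With 1 library left out it was -3.77 to 6.41 for Casq1 and -5.41 to 18.7 for Tnnt3 in ECs, and in hearts -0.00299 to 0.00632 for Tnni2, -0.00211 to 0.0030 for Tnnc2, -0.00101 to 0.00095 for the myosins and -0.00129 to 0.000359 for Atp2a1.

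With the replicate number as a block, 9 members and 1390 genes were called in ECs, 1 member and 696 genes in hearts, 8 members and 5981 genes between Hmox2+/+ tissues, 4 and 7348 between Hmox2-/- tissues and 8 and 2207 for the interaction. The heart call of Actn3 was lost (log2 fold change 1.37, adjusted p = 0.0774).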
